A study of Mus musculus with 2 samples.

Results

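The genes described here encode the subunits of the Polycomb repressive complexes PRC1 and PRC2, as measured in 2 kinds of mouse epiblast stem cells. The set held 31 genes, 11 of PRC2 and 20 of PRC1, and its members were picked by gene name, with no threshold on a measured value. Each gene was read from the probe with the highest mean log2 signal among its probes detected on at least 1 array, where detected means flagged as well above background by the scanner software. All 31 were detected on both arrays with that probe, out of 25851 genes detected on at least 1 array, and 29 of them were among the 16649 genes whose mean log2 signal reached 7.5. Cbx8 and Pcgf3 fell below that minimum.

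Both groups were derived from E14Tg2A, an embryonic stem (ES) cell line of strain 129/Ola. EpiSC came from ES cells cultured directly with FGF2 at 12 ng/mL and with Activin A at 20 ng/mL, in a medium of defined composition. ELA-EpiSC received both factors at the same concentrations but started from Epiblast-Like Aggregates (ELA), which are floating clusters formed by the ES cells after serum and LIF, a cytokine that sustains ES cell self-renewal, are withdrawn. Each group was represented by 1 array hybridized with RNA pooled from 3 experiments in 1 line, so that no difference below has a replicate check and no p-value was computed.

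Polycomb proteins keep developmental genes silent in pluripotent cells. PRC2 places methyl groups on lysine 27 of histone H3, and PRC1 attaches ubiquitin to histone H2A, and each complex can recognize the mark left by the other. Both are built around a small shared core to which alternative subunits bind, and the choice among these alternatives sets which form of the complex is made and where it is recruited. Canonical PRC1 carries a CBX protein that reads methylated histone H3, whereas variant PRC1 carries RYBP or YAF2 in its place.

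The 31 genes were covered by 55 probes with 1 spot each, of which 53 were detected on at least 1 array and 48 on both. None of the spots was flagged or saturated, and 0 of the 31 probes used shared a run of 20 bases with a probe named for another gene. The only measure of error was technical: across 234 bright probes printed 10 times, the difference between the arrays had a spot SD of 0.10 on the log2 scale. This SD covers neither labelling nor culture. Signals are given on the log2 scale after background correction and quantile normalization, and each difference is the log2 signal of ELA-EpiSC minus that of EpiSC. Levels were compared between the arrays with the same probe or probes on both, and not between genes, since the brightness of a probe also depends on its sequence. The RNA came from whole cultures, in which fewer cells of a type and less RNA per cell cannot be told apart.

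Scaling sets where 0 lies. On the quantile-normalized scale the median difference of all genes was 0.0014. RNA spiked into both samples gave less signal with ELA-EpiSC, on average by 0.54 over 8 detected spike-in probes. Single spike-in probes ranged from -0.86, for a probe that read 11.04 in EpiSC and 10.18 in ELA-EpiSC, to -0.26 for the brightest. Spike-in scaling uses their mean as 1 constant for all genes, so a direction it leaves unturned was not checked against this range. Setting the spike-in probes equal on average moved the median of all genes to 0.54, and scaling by the median signal after background correction moved it to 0.15. The differences below are therefore relative to the bulk of the genes, and for each of the 31 genes the settings that turned its direction are named beside it.

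Probes that carry the largest differences are shown first, as their first 30 bases from 5′ to 3′ in the sense of the transcript, with positions in the mm9 assembly as the array files give them. Whether they lie in coding or untranslated sequence was not analysed here. The first set covers Cbx2 and Cbx8 of canonical PRC1, which lie beside each other on chromosome 11.

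Cbx2, chr11:118892363-118892392, plus strand: ccttttattttactggttacgtcagtccca
Cbx8, chr11:118899807-118899836, minus strand: aattatctctagagttctattttctattag

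The second set shows 3 of the 17 genes for which more than 1 probe was detected, Pcgf5 and Bmi1 with probes of the same direction and Aebp2 with probes of opposite directions. Capitals mark the bases that the printed stretches of the Pcgf5 probes have in common. These 2 probes start 6 bases apart and share 54 bases, so they are not independent readings.

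Pcgf5, chr19:36530623-36530652, plus strand: tggtttCTGAGCCACTGACCTATTCTTGGT
Pcgf5, chr19:36530629-36530658, plus strand: CTGAGCCACTGACCTATTCTTGGTaaactt
Bmi1, chr2:18607531-18607560, plus strand: gctttgtcttgcttgtagccattaaatcat
Bmi1, chr2:18607987-18608016, plus strand: tggtgaatttaactcatttttctagacttt
Aebp2, chr6:140603895-140603924, plus strand: gtgttcctcaaggttgacattctctgcctg
Aebp2, chr6:140596546-140596575, plus strand: tagttcatttatcaaagctacccaaagata

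The third set holds Rnf2, Pcgf2 and Ezh1, whose differences are set against those of their alternative subunits.

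Rnf2, chr1:153317017-153317046, minus strand: ttgatagaaggaagagacttccggtaccat
Pcgf2, chr11:97551190-97551219, minus strand: cctggttcctcccattttcagagtgggagg
Ezh1, chr11:101052460-101052489, minus strand: ttcttgcactttaaagtcctgtggcttgtg

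The Polycomb subunits differed between the arrays about as much as other genes did. Above the minimum signal, the median absolute difference was 0.27 for the 29 members and 0.28 for all 16649 genes. Of the 29 genes above the minimum, 0 differed by at least 1 on the log2 scale, against 9% of all genes tested (4.54% higher in ELA-EpiSC, 4.46% higher in EpiSC). Without the minimum, 1 of the 31 did so, Cbx8, against 6.73% of the 25851 detected genes. At a smaller size of 0.5, Rnf2 was higher in ELA-EpiSC (background 13.6%) and Ezh1, Bmi1, Pcgf5 and Cbx2 were higher in EpiSC (background 13.7%). Together these made 17.2% of the members above the minimum, against 27.3% of all genes in both directions. With spike-in scaling 21 members instead passed 0.5, all higher in ELA-EpiSC, but the median of all genes was then itself 0.54. Differences of 6 members were below the spot SD, namely Suz12, Phf1, Pcgf1, Pcgf6, Phc2 and Kdm2b, all of them among the 29 above the minimum. Of all genes above the minimum, 20.1% lay below it, a similar share. The other 25 of the 31 members exceeded the spot SD. Across the 31 genes the median difference was 0.14, and ELA-EpiSC had the higher signal for 20 of them and EpiSC for 11. This split was 24 to 7 with median scaling, 26 to 5 with spike-in scaling and 16 to 15 with the second brightest probe. Median and spike-in scaling also moved the median of all genes, to 0.15 and 0.54. Among all detected genes 49.2% were higher in ELA-EpiSC.

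**Figure D1:**
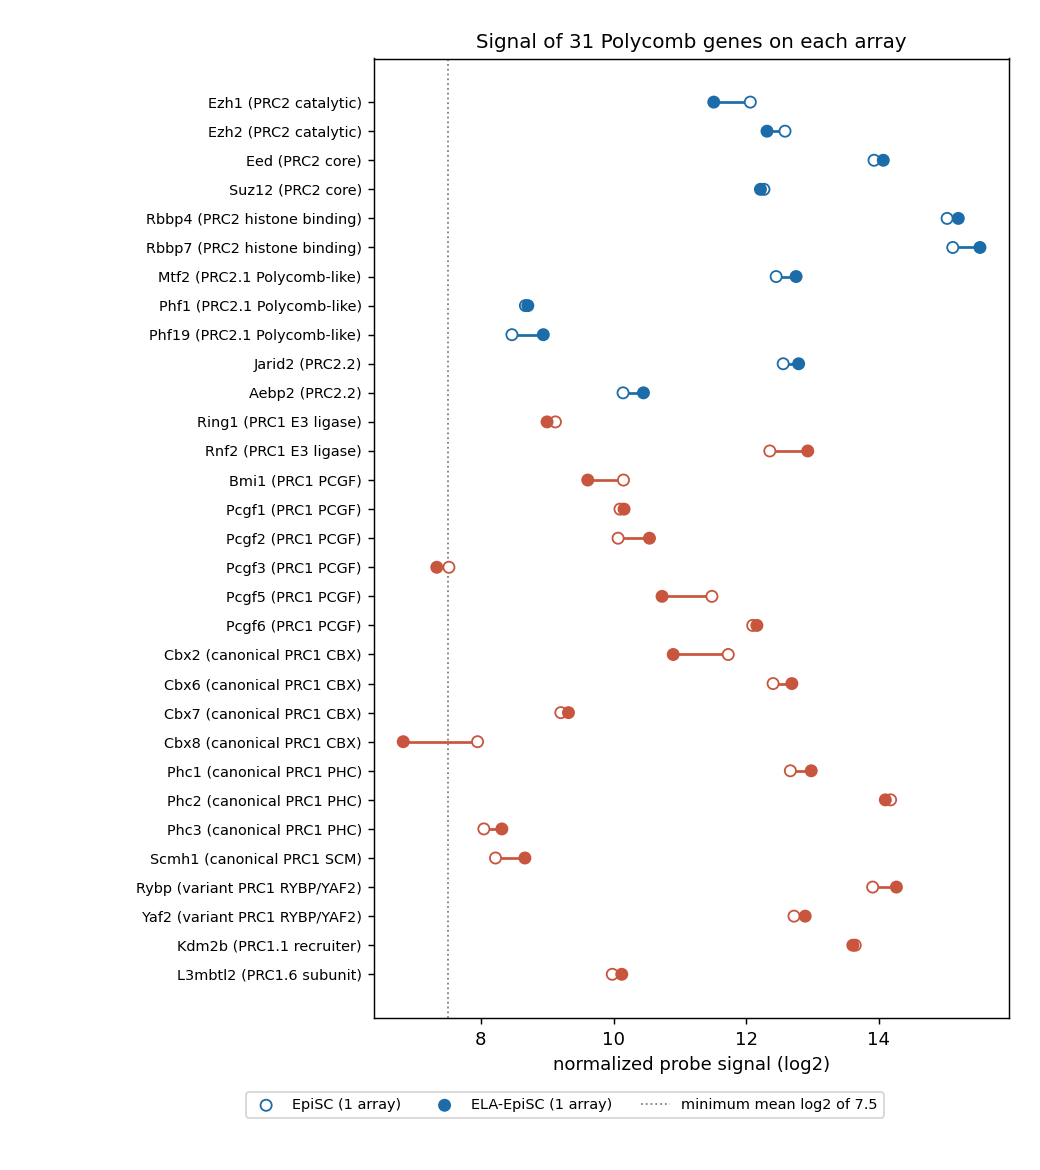
Normalized probe signal (log2, x axis) of each of the 31 Polycomb genes (y axis, with its role) on the EpiSC array (open circles) and the ELA-EpiSC array (filled circles), blue for PRC2 and red for PRC1, with lines joining the arrays and a dotted line at the minimum mean log2 of 7.5. The longest lines belong to Cbx8, Cbx2 and Pcgf5, which have the higher signal on the EpiSC array. Spike-in scaling, which adds the same 0.54 to each difference, shortens these lines without turning them. A spike-in probe that read 11.04 in EpiSC, near Cbx2 and Pcgf5, itself differed by -0.86, and spike-in scaling by brightness was not tried.

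Ezh1 and Ezh2 encode the alternative methyltransferases of PRC2. The Ezh1 probe read 12.06 in EpiSC and 11.51 in ELA-EpiSC, differing by -0.55, and all 4 Ezh1 probes were lower in ELA-EpiSC, by -0.55 to -0.15. Only the 2 brighter ones were detected on both arrays. Ezh2, which is the main form in dividing cells, read 12.58 and 12.31, a difference of -0.27 from its single probe. Both methyltransferase genes thus read lower in ELA-EpiSC, Ezh1 by the larger amount, with 1.47-fold against 1.21-fold more signal in EpiSC. The direction for Ezh2 rests on the scaling, since its raw spot signal was nearly equal, 5559 units in EpiSC and 5579 in ELA-EpiSC, and spike-in scaling turned its difference to 0.27. Ezh1 kept its direction under each of 15 alternative settings, down to -0.01 with spike-in scaling, which was read from its brightest probe only. The 0.54 this scaling adds exceeds the differences of the other 3 Ezh1 probes in size, such as -0.35 for the second brightest, so these would turn positive.

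Eed and Suz12 complete the core that the methyltransferases need for activity. Eed, which binds the methylated histone, read 13.93 in EpiSC and 14.07 in ELA-EpiSC, differing by 0.14. Suz12, the scaffold on which the other subunits assemble, read 12.27 and 12.21, a difference of -0.05 that was below the spot SD and became positive with median or spike-in scaling. The core genes were therefore nearly level between the arrays.

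Rbbp4 and Rbbp7 encode histone-binding proteins that PRC2 shares with other chromatin complexes. Rbbp7 read 15.11 in EpiSC and 15.52 in ELA-EpiSC, differing by 0.41, and its other probe gave 0.70. Rbbp4 read 15.03 and 15.20, a difference of 0.17, while its dimmer probe gave -0.21. Rbbp7 was higher in ELA-EpiSC with both probes and under each of the 15 settings, whereas the direction of Rbbp4 turned with scaling to the 75th percentile, with the processed signal scaled in that way, and with the mean of its probes or the dimmer one.

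The accessory subunits define PRC2.1, with Mtf2, Phf1 or Phf19, and PRC2.2, with Jarid2 and Aebp2. Mtf2, a Polycomb-like protein that binds unmethylated CpG-rich DNA, read 12.45 in EpiSC and 12.75 in ELA-EpiSC, differing by 0.30, but its dimmer probe gave -0.14. Phf19 read 8.47 and 8.94, a difference of 0.47, which was the largest of the PRC2 genes upwards. Phf1 read 8.67 and 8.71, a difference of 0.04 that was below the spot SD and turned slightly negative with scaling to the 75th percentile. Among these 3 Polycomb-like genes, Mtf2 had probes of opposite directions, both probes of Phf1 were positive, and Phf19 had 1 probe.

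Jarid2, a relative of histone demethylases that has no demethylase activity and helps to recruit PRC2, read 12.56 in EpiSC and 12.79 in ELA-EpiSC, differing by 0.23. Aebp2, a zinc finger protein that stabilizes the complex, read 10.14 and 10.45 with its brighter probe, a difference of 0.31, and 9.91 and 9.58 with the other, a difference of -0.34. The Aebp2 probes lie at different places in the gene, were detected on both arrays and had similar brightness, so no direction can be given for the gene as a whole. Jarid2 kept its direction under each of the 15 settings.

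**Figure D2:**
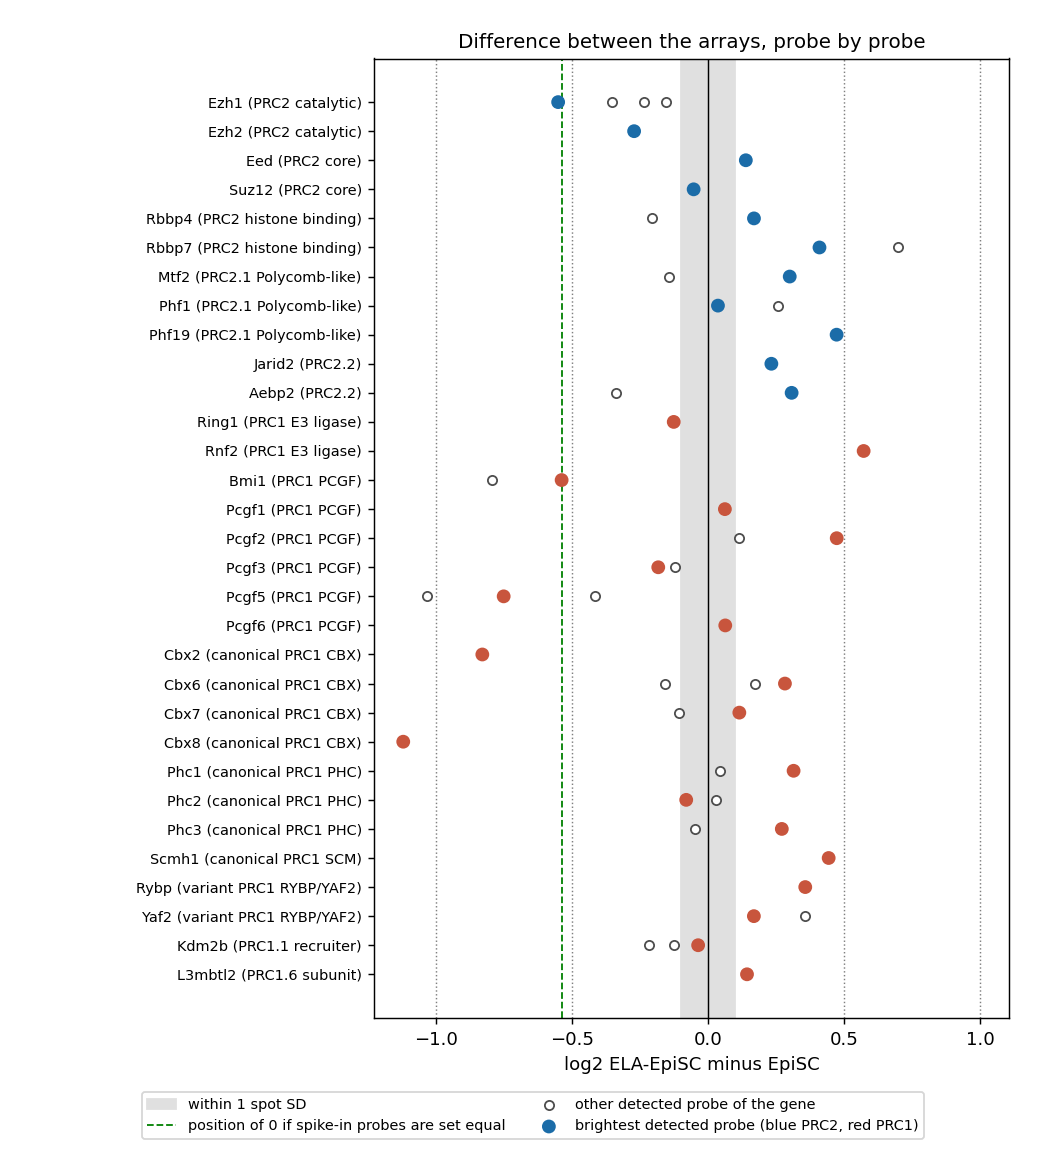
Log2 difference, ELA-EpiSC minus EpiSC (x axis), for each of the 31 Polycomb genes (y axis): filled circles show the brightest detected probe (blue PRC2, red PRC1), open circles the other detected probes of the gene, the grey band 1 spot SD (0.10) on either side of 0, and the dashed line where 0 would lie with the spike-in probes set equal. The probes of Ezh1, Bmi1 and Pcgf5 all lie left of 0, and those of Rbbp4, Mtf2 and Aebp2 lie on both sides. Ezh2, the dimmer probes of Ezh1 and the dimmest of Pcgf5 lie between the dashed line and 0.

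Ring1 and Rnf2 encode the alternative ubiquitin ligases of PRC1. Rnf2, also called Ring1B and the main ligase of ES cells, read 12.36 in EpiSC and 12.93 in ELA-EpiSC. Its difference of 0.57 was the largest upward difference among the 31 genes and corresponds to 1.49-fold more signal in ELA-EpiSC, with raw spot signals of 4701 and 8411 units. Among all genes, 22.7% differed by as much or more. Ring1 read 9.12 and 8.997, a difference of -0.13 that turned positive with median and spike-in scaling. Rnf2 was above 0.5 under each of the 15 settings, with a range of 0.55 to 1.11.

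The 6 PCGF genes encode the partner of the ligase that decides which form of PRC1 is built. Bmi1 and Pcgf2 are the alternatives of canonical PRC1. Bmi1 read 10.15 in EpiSC and 9.61 in ELA-EpiSC, differing by -0.54, and its other probe, 0.456 kb further along the gene, gave -0.79. Pcgf2 read 10.07 and 10.54, a difference of 0.47, and its other probe gave 0.11. Both probes of Bmi1 were thus lower in ELA-EpiSC and both probes of Pcgf2 higher. Spike-in scaling left the brighter Bmi1 probe just below 0.

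Pcgf1, Pcgf3, Pcgf5 and Pcgf6 belong to variant PRC1. Pcgf5 read 11.48 in EpiSC and 10.73 in ELA-EpiSC, differing by -0.75, or 1.68-fold more signal in EpiSC. Its overlapping probe gave -1.03, and a dimmer probe elsewhere in the gene gave -0.42. All 3 Pcgf5 probes were lower in ELA-EpiSC, and the direction held under each of the 15 settings, with a range of -1.03 to -0.21. Spike-in scaling was read from the brightest probe only. The 0.54 it adds exceeds the -0.42 of the dimmer probe in size, so that probe would turn positive. A spike-in probe near the brightest Pcgf5 probe, at 11.04 in EpiSC, itself differed by -0.86. Pcgf3, the closest relative of Pcgf5, read 7.52 and 7.33, a difference of -0.18 at a level below the minimum, and turned positive with spike-in scaling.

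Pcgf1, the partner of KDM2B in PRC1.1, and Pcgf6, the partner of L3MBTL2 in PRC1.6, were nearly level. Pcgf1 read 10.10 in EpiSC and 10.16 in ELA-EpiSC, differing by 0.06. Pcgf6 read 12.10 and 12.16, likewise a difference of 0.06. Both lay below the spot SD, and both turned slightly negative in some settings, Pcgf1 with the deposited values and with the median brightness of the pixels, and Pcgf6 with the processed signal.

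CBX proteins give canonical PRC1 its reader of methylated histone H3. Cbx2 read 11.73 in EpiSC and 10.90 in ELA-EpiSC, with raw spot signals of 3021 and 2082 units. Its difference of -0.83, or 1.78-fold more signal in EpiSC, was the largest of the members above the minimum, and 12.5% of all genes differed by as much or more. Cbx8 read 7.95 and 6.83, a difference of -1.12, but its mean log2 of 7.39 was below the minimum and its raw signals were 197 and 88.3 units over a background of 26 and 28 units. Both genes were measured with 1 probe each, and both kept their direction under each of the 15 settings. The ranges were -0.97 to -0.29 for Cbx2 and -1.81 to -0.58 for Cbx8. The spike-in probe nearest to Cbx2 in brightness, 11.04 in EpiSC, differed by -0.86, slightly more than Cbx2 itself.

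Cbx7, the main CBX protein of undifferentiated ES cells, read 9.20 in EpiSC and 9.32 in ELA-EpiSC, differing by 0.12, while its dimmer probe gave -0.11. Cbx6 read 12.40 and 12.69, a difference of 0.28, and its other probes gave 0.17 and -0.16. The CBX genes thus did not share a direction: Cbx2 and Cbx8 read lower in ELA-EpiSC, while the brightest probes of Cbx6 and Cbx7 read higher, that of Cbx7 by little more than the spot SD.

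Cbx2 and Cbx8 are neighbours on chromosome 11, with probes 7.41 kb apart. Both genes of this neighbouring pair read lower in ELA-EpiSC, on opposite strands.

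PHC proteins link PRC1 complexes to one another through a SAM domain. Phc1, the form typical of pluripotent cells, read 12.66 in EpiSC and 12.98 in ELA-EpiSC, differing by 0.31, and its dimmer probe gave 0.05. Phc2 read 14.18 and 14.10, a difference of -0.08 that was below the spot SD and turned positive with median and spike-in scaling and with its dimmer probe. Phc3 read 8.04 and 8.32, a difference of 0.27, and its dimmer probe gave -0.05. Scmh1, which carries a SAM domain as well and binds to PHC proteins, read 8.22 and 8.66, a difference of 0.44. Of these genes, Phc1 and Scmh1 kept their direction under each of the 15 settings.

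Rybp and Yaf2, the subunits that stand in for CBX in variant PRC1, both read higher in ELA-EpiSC. Rybp read 13.91 in EpiSC and 14.26 in ELA-EpiSC, differing by 0.36. Yaf2 read 12.72 and 12.89, a difference of 0.17, and its other probe gave 0.36. Both kept their direction under each of the 15 settings.

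Kdm2b and L3mbtl2 recruit variant PRC1 to DNA. Kdm2b, which binds unmethylated CpG islands, read 13.64 in EpiSC and 13.61 in ELA-EpiSC. Its difference of -0.04 was below the spot SD, its other probes gave -0.22 and -0.13, and its direction turned in 5 of the 15 settings, namely median scaling, cyclic loess, spike-in scaling, the median pixel brightness and the deposited values. L3mbtl2 read 9.98 and 10.12, a difference of 0.14. Both recruiters were therefore close to level between the arrays.

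The complexes were then compared as wholes. The 11 PRC2 genes had a median difference of 0.17 and ranged from -0.55 to 0.47, with 8 higher in ELA-EpiSC. The 20 PRC1 genes had a median of 0.09 and ranged from -1.12 to 0.57, with 12 higher in ELA-EpiSC. The medians of the complexes were 0.08 apart, a gap for which no error was estimated. Their order was the other way round with the processed signal, with 75th percentile or median scaling and with the second brightest probe. The mean of the PRC1 genes was -0.02, opposite in sign to their median, with Cbx8, Cbx2, Pcgf5 and Bmi1 furthest below 0. PRC2 had a mean of 0.11.

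**Figure D3:**
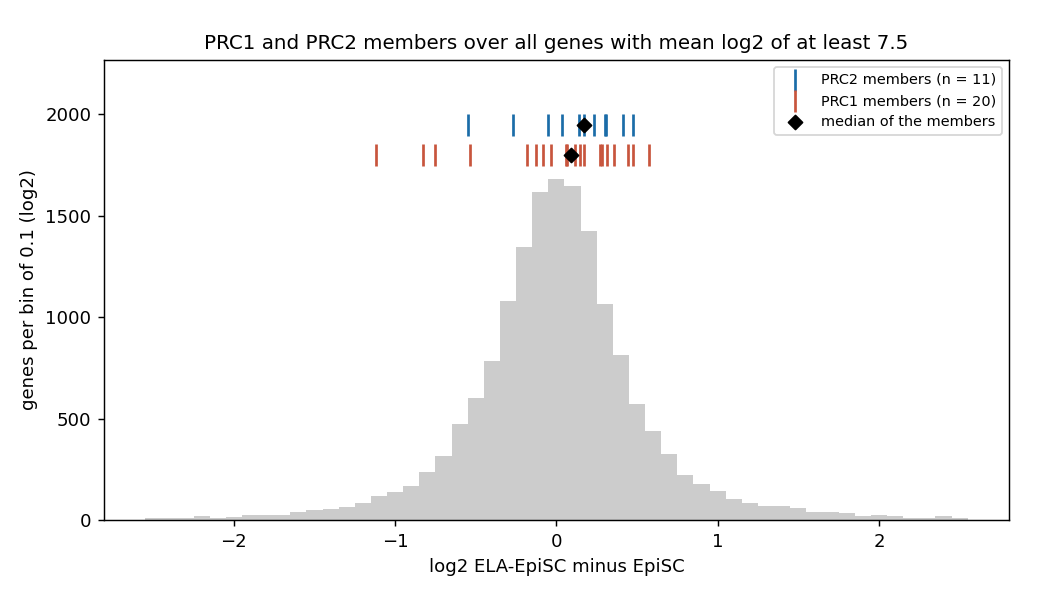
Number of genes per bin of 0.1 (y axis, grey bars) by log2 difference, ELA-EpiSC minus EpiSC (x axis, outermost genes not drawn), for the 16649 genes above the minimum signal, with each of the 11 PRC2 genes (blue) and 20 PRC1 genes (red) as a tick above and the median of each complex as a diamond. Both medians lie close to the peak of all genes, and the PRC1 ticks reach further left, to -1.12 for Cbx8, than the PRC2 ticks, to -0.55 for Ezh1; spike-in scaling would move all ticks and bars 0.54 to the right.

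Within PRC1, the 10 genes of canonical complexes (Bmi1, Pcgf2, CBX, PHC and Scmh1) had a median difference of 0.19 and a mean of -0.07. The 8 genes of variant complexes (Pcgf1, Pcgf3, Pcgf5, Pcgf6, Rybp, Yaf2, Kdm2b and L3mbtl2) had a median of 0.06 and a mean of -0.02. In both subsets the median and the mean thus differed in sign. The median absolute difference was 0.38 over the canonical genes and 0.16 over the variant genes, Cbx8 and Pcgf3 from below the minimum included. It was 0.21 over all detected genes and 0.28 over those above the minimum signal. Whether the subsets differ in spread was not tested.

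Alternative subunits were then set against each other. For 19 pairs the difference of one gene was subtracted from that of the other, which removes any shift shared by the whole array. A contrast of 2 single-spot probes has a spot SD of 0.14. Of the 19 contrasts, 5 were at least 0.5 in size, and these 5 kept their sign under each of the 15 settings, as did 14 of the 19 in all. Not every setting can move a contrast. Spike-in scaling adds the same constant to both genes, so it leaves each contrast at its reported value. Median scaling and percentile scaling of the same signal likewise differ by a constant only and count as a single check. Probe choice cannot move Rnf2 minus Ring1, as each of these genes had a single probe.

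The largest contrast was in canonical CBX genes, where Cbx8 minus Cbx7 was -1.24 (-1.93 to -1.01 over the settings), with Cbx8 below the minimum signal. Cbx7 minus Cbx2 was 0.94 (0.72 to 1.08), whereas Cbx8 minus Cbx2 was -0.29 (-0.84 to -0.26). Relative to Cbx7, both Cbx2 and Cbx8 were thus lower in ELA-EpiSC than in EpiSC.

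Among the PCGF genes, Pcgf2 minus Bmi1 was 1.01 (0.91 to 1.11), so that the ratio of Pcgf2 to Bmi1 signal was 2.02 times as high in ELA-EpiSC as in EpiSC. Pcgf5 minus Pcgf3 was -0.57 (-0.91 to -0.44), again with Pcgf3 below the minimum. For the ligases, Rnf2 minus Ring1 was 0.70 (0.67 to 0.75), a 1.62 times higher ratio in ELA-EpiSC. Bmi1, Pcgf2, Pcgf3 and Pcgf5 each had at least 2 detected probes, all of 1 direction within the gene, while Rnf2, Ring1, Cbx2 and Cbx8 had 1 probe each. The dimmer Pcgf3 probe was detected in EpiSC only, and the probes of Cbx7 had opposite directions (0.12 and -0.11).

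In PRC2, Ezh2 minus Ezh1 was 0.28 (0.05 to 0.36), Rbbp7 minus Rbbp4 was 0.24 (0.21 to 0.90) and Phf19 minus Phf1 was 0.44 (0.22 to 0.65). These were smaller than 0.5 and kept their sign. Aebp2 minus Jarid2 was 0.07 (-0.57 to 0.19) and Phf1 minus Mtf2 was -0.26 (-0.32 to 0.40), neither with a fixed sign. Rybp and Yaf2 differed by -0.19 (-0.24 to -0.0013), Yaf2 being the lower, and the nearest to equal were Pcgf6 and Pcgf1, at 0.0013 (-0.15 to 0.14).

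**Figure D4:**
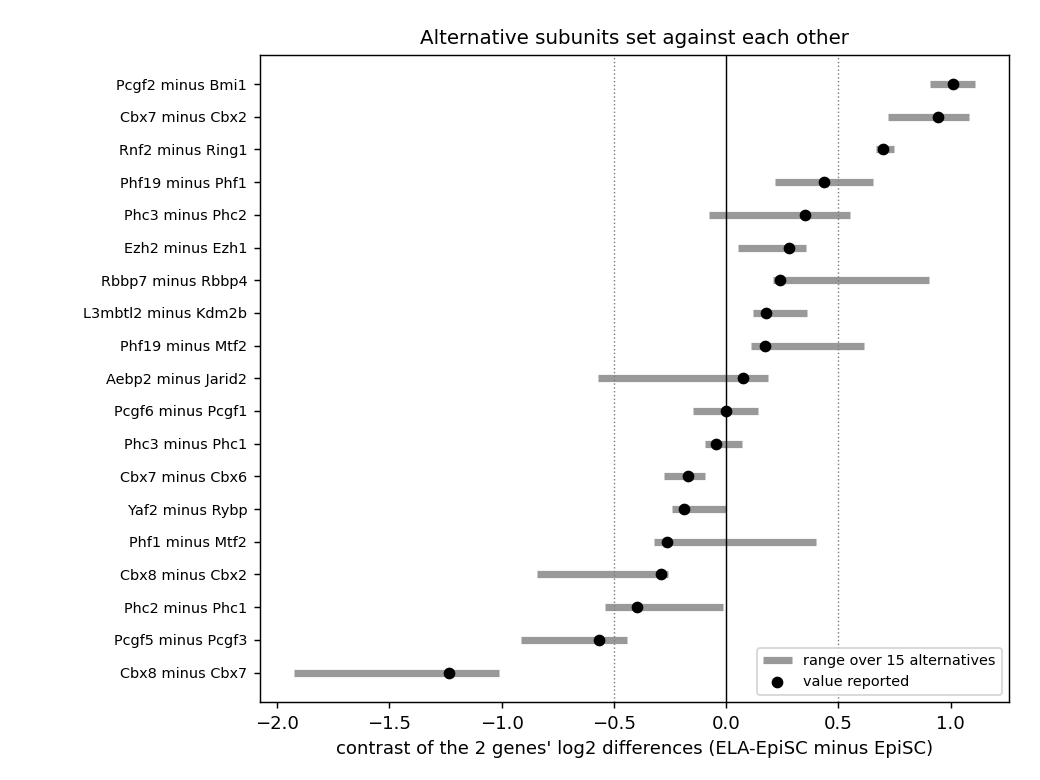
Contrasts of alternative subunits (y axis), each the log2 difference between the arrays of the first gene minus that of the second (x axis), for 19 pairs; black points are the reported values, grey bars the lowest to highest value over 15 alternative settings, and dotted lines mark 0.5 in either direction. Pcgf2 minus Bmi1, Cbx7 minus Cbx2 and Rnf2 minus Ring1 lie beyond 0.5 on the right with their whole bars, and Cbx8 minus Cbx7 does so on the left.

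The member genes were also compared in a feature that their choice did not use, the CpG content of the promoter. In RefSeq promoters of assembly GRCm38.p6, each holding 250 bases before and 50 bases after the start of the gene, 27 of the 31 members had an entry. They held a median of 30 CpG dinucleotides (9 in Phc1 to 54 in Scmh1), counted as the letters CG in the promoter richest in them, against a median of 22 over 9485 other genes above the minimum signal. At least 15 were found in 25 of the 27, and in 73.7% of the other genes. Cbx2, Pcgf1, Rybp and Yaf2 had no entry. The sets were not chosen alike, since the 9485 other genes are those above the minimum that had an entry, while the 27 members include Cbx8 and Pcgf3 from below it.

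Further Polycomb subunits and partners were read from a list of 29 genes, of which 28 were detected and had a mean log2 of at least 7.5. Their median difference was 0.06. At the size of 1, ELA-EpiSC had the higher signal for 2 (background 4.54%) and EpiSC for 0 (background 4.46%). Sfmbt2, an MBT-domain Polycomb protein, read 9.12 in EpiSC and 10.86 in ELA-EpiSC, differing by 1.74, and its 3 detected probes gave 0.50 to 1.74. Scml2, which can bind PRC1, read 8.08 and 9.75, a difference of 1.67, with 3 probes at 0.88 to 1.98.

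At the size of 0.5, 4 of the 28 were higher in ELA-EpiSC (background 13.6%) and 2 in EpiSC (background 13.7%). Together these made 21.4%, against 27.3% of all genes. Added among those higher in ELA-EpiSC were Sfmbt1 (0.91, other probe 0.43) and Csnk2a2 (0.70, with 3 probes at 0.03 to 0.70). Skp1a (-0.63) and Fbrsl1 (-0.53, other probe -0.28) were higher in EpiSC, the last of which turned slightly positive with spike-in scaling. Sfmbt1, Csnk2a2, Skp1a and Fbrsl1 were named after their values were seen.

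Genes known as Polycomb targets in ES cells differed more widely than the subunits. The list held 24 such genes, of which 20 were detected and 11 had a mean log2 of at least 7.5. Over the 20 detected genes the median difference was -0.31, which turned to 0.22 with spike-in scaling. Of the 11, 1 was higher in ELA-EpiSC by at least 1 (background 4.54%) and 5 were higher in EpiSC (background 4.46%), although a gene well expressed on 1 array only can pass the minimum through that array. T, the mesoderm regulator Brachyury, read 11.18 in EpiSC and 13.66 in ELA-EpiSC, differing by 2.48. Isl1, a transcription factor of heart and motor neuron precursors, read 10.44 and 6.27, a difference of -4.17.

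Gata4 (-2.39) and Nkx2-5 (-2.24), transcription factors of endoderm and heart, and Irx3 (-1.27) were likewise lower in ELA-EpiSC. Cdkn2a, the cell cycle inhibitor locus that is a classical target of Bmi1, read 12.19 in EpiSC and 10.26 in ELA-EpiSC, differing by -1.93, and its other probe gave -1.27. Wnt6, a signalling ligand, was detected on the ELA-EpiSC array only, where it was at least 6.71-fold higher. These genes kept their direction under each of the alternatives in which they were recomputed, which did not include Wnt6.

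**Figure D5:**
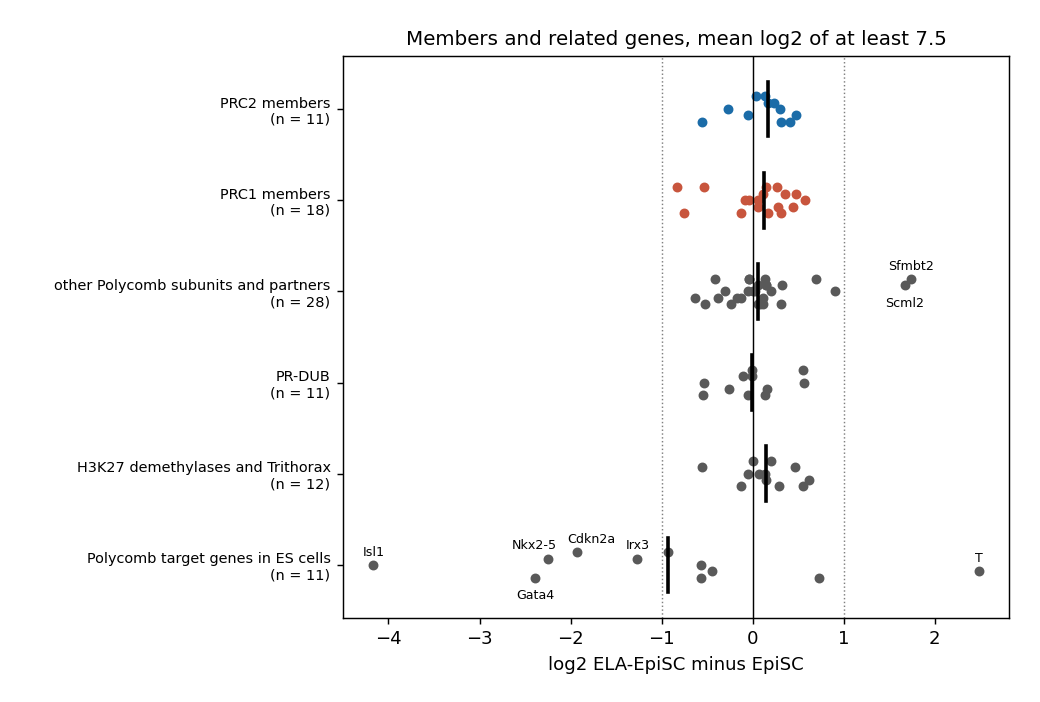
Log2 difference, ELA-EpiSC minus EpiSC (x axis), of single genes above the minimum signal (points), by gene list (y axis, with the number of genes), with the median of each list as a black bar, dotted lines at 1 in either direction, and names for genes past them. PRC2 and PRC1 genes lie within 1 of 0, as do the PR-DUB and Trithorax lists, whereas Sfmbt2 and Scml2 lie to the right of 1 and the Polycomb target genes reach from -4.17 for Isl1 to 2.48 for T.

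Markers of other cell types also differed between the arrays. The 7 epiblast markers (Pou5f1, Sox2, Nanog, Fgf5, Otx2, Dnmt3b and Eomes) were detected on both arrays with a median difference of 0.16. Dnmt3b (-0.84) and Sox2 (-0.27) were lower in ELA-EpiSC, Sox2 turning positive with spike-in scaling, and the other 5 were higher or level. Of 7 ground-state markers 5 were lower in ELA-EpiSC, by most in Tbx3 (-3.75), Nr0b1 (-2.74) and Tfcp2l1 (-1.42), with Klf2 (-0.33) and Zfp42 (-0.22) turning positive with spike-in scaling, while Esrrb (0.43) and Klf4 (0.16) were higher. Of 7 endoderm markers 6 were lower in ELA-EpiSC, or 5 with spike-in scaling, with a summed signal of 54144 normalized units in EpiSC and 31240 in ELA-EpiSC, in which the brightest probes weigh most. Hnf4a gave the largest difference (-5.12), and Ttr and Apoa1 were detected in EpiSC only.

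Of 6 neural markers, 5 were detected and 4 were higher in ELA-EpiSC, with a summed signal of 6406 in EpiSC and 23334 in ELA-EpiSC, mostly from Nes (2.11), and Pax6 was not detected on either array. The 5 mesoderm markers summed to 3363 and 14111, mostly from T (2.48). T and Mixl1 (1.97) were higher in ELA-EpiSC, whereas Mesp1 (-1.66), Hand1 (-0.56) and Tbx6 (-0.26) were higher in EpiSC. The median of the mesoderm list was -0.26, and it turned to 0.28 with spike-in scaling. The list of Polycomb targets shares 6 genes with these marker lists. The part of cells of other types in the differences of the Polycomb genes was not tested.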

How the data were processed

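RNA of EpiSC and ELA-EpiSC was measured on 1 one-colour Agilent mouse array per group, with 50 ng of Cy3-labelled RNA per the labels. Groups were taken from the sample titles. The source field of the EpiSC sample instead names an Argonaute immunoprecipitate and that of the ELA-EpiSC sample undifferentiated cells. Scanner output was deposited as linear intensity per spot beside its local background, made with Feature Extraction 10.7.3.1 per the file headers. The authors also deposited log2 values per probe, background-corrected and quantile normalized with limma, which served as an alternative.

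Here the mean spot signal was corrected by normexp (offset 50) with limma 3.58.1 in R 4.3.3. Control and flagged spots (158 for EpiSC, 117 for ELA-EpiSC) were left out, log2 values were quantile normalized, and spots of a probe were averaged. Adding the offset shrinks the differences of dim genes. Median spot signals were 71.7 and 79.1 units over a background of 26 and 25, and 65.9% and 65.0% of 55681 probes were detected. The number of arrays limits the precision. The code was tested on simulated data.

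Counts used sizes of 1 and 0.5 at a mean log2 of at least 7.5. All 31 members were named, and from the other lists genes past 1, or else up to 3 with the largest difference, and exceptions are marked. Some further markers are given beside these. Members and lists were chosen with earlier results of these data known. One gene of the list of further Polycomb subunits was left out for a reason other than its value and is not reported here. Where a gene was detected on 1 array, its fold is a bound against the lowest detected signal of the dim array or the dim probe's own value, whichever was higher. Members, pairs, complex medians and most genes named from other lists were recomputed under 15 alternatives of background correction, scaling, probe choice and filter (14 for Ttr), and the counts of members under 17.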

Additional observations from a re-analysis of the deposited data

How the results depend on the processing

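Of the 31 members, 17 kept their direction under all 15 alternatives for a single gene and 14 turned under at least 1. The alternatives of probe choice cannot change the value of a member with 1 probe. The median difference of the PRC2 genes (0.17) became 0.0421 with the processed signal, 0.0367 with 75th percentile scaling, 0.71 with spike-in scaling and -0.0528 with the second brightest probe. That of the PRC1 genes (0.09) became 0.32 with median scaling and 0.63 with spike-in scaling. PRC1 minus PRC2 (-0.08) became 0.0516 with 75th percentile or median scaling and 0.0907 with the second brightest probe. Members past 0.5 and higher in ELA-EpiSC numbered 1 in the values reported, 2 with an offset of 16, no background correction, the median pixel signal, the mean of the probes or the second brightest probe, 3 with an offset of 0, the processed signal or the deposited values, 6 with median scaling and 21 with spike-in scaling. Those higher in EpiSC numbered 4, 2 with median scaling, 0 with spike-in scaling, 3 with the mean of the probes or the second brightest probe and 5 without a minimum signal. At a size of 1, the 0 higher in ELA-EpiSC became 3 with spike-in scaling, and the 0 higher in EpiSC became 1 with the second brightest probe (Pcgf5) and 1 without a minimum signal (Cbx8). The alternative without a minimum was chosen after seeing the data. Fbrsl1 turned to 0.0109 with spike-in scaling. Spike-in scaling adds the same 0.54 to each difference, of members and other genes alike, and median scaling moved the median of all genes to 0.15. How many of all genes passed 0.5 in these settings was not counted. What lay behind the other shifts was not tested. No paired analysis was possible because of the single array per group, nor could a replicate be left out. Genes near background, such as Cbx8 and Pcgf3, are compressed by the offset, and Cbx8 reached -1.81 at the lowest among the settings.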

Other observations

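PR-DUB removes the ubiquitin that PRC1 attaches to histone H2A. All 11 genes listed for this complex and its partners were detected on both arrays, with a median difference of -0.01 and 0 past 1. Asxl1, which activates the deubiquitinase, read 13.93 in EpiSC and 14.50 in ELA-EpiSC, differing by 0.57. Mbd6, a methyl-binding-domain protein of the complex, read 11.91 and 12.47, a difference of 0.56. Kdm1b, a histone demethylase, read 10.92 and 10.37, a difference of -0.55 that became -0.0078 with spike-in scaling. Bap1, the deubiquitinase itself, gave 0.13.

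Trithorax proteins and the demethylases of histone H3 lysine 27 oppose Polycomb. Of 19 names listed, 13 were on the array, 6 being older names, and all 13 were detected, with a median difference of 0.15 and 0 past 1 among the 12 above the minimum. Rbbp5, a core subunit of the methyltransferase complexes, read 9.74 in EpiSC and 10.36 in ELA-EpiSC, differing by 0.62. Kdm6a, the X-linked H3K27 demethylase Utx, read 9.79 and 10.34, a difference of 0.55. Dpy30, another core subunit, read 13.95 and 13.40, a difference of -0.55, and its other probe gave -0.66. The differences of these named genes kept their direction under each of the 15 alternative settings.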
